A study of Rattus norvegicus with 40 samples.

Results

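Non-tumoral (NT) liver was taken from 4 rats killed at 20 weeks, 6 weeks after the last of 14 weekly injections of diethylnitrosamine (DEN), and its RNA was compared with that of liver from 4 rats of the same age that had no DEN. The libraries were chosen by their labels alone (DEN, week 20, NT, or no DEN, week 20) and make up 8 of the 40 libraries of the series, which come from 24 rats. All rats were male Fischer 344, and the treated rats were 7 weeks old when the intraperitoneal injections of 50 mg/kg DEN in olive oil began. The sources used here do not say whether the rats without DEN received the oil, nor how far from the nodules of the same livers the NT pieces were cut. Each library is 1 rat. The NT rats are labelled F03, H25, H26 and H28 and the rats without DEN H13, H14, H15 and H16, and values of single rats are given below in these orders. F03 has no counterpart with the letter F among the 20-week rats without DEN, and what the letter marks, which the labels do not say, cannot be told apart from the rat itself. As the reference for what remained, NT liver of 4 other rats killed at 14 weeks, at the end of the injections (F06, H21, H22 and H23), was compared with liver of 4 age-matched rats without DEN (H09 to H12). The 14-week and 20-week comparisons share no library, so a change between them is a difference between different rats.

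DEN is converted in hepatocytes by cytochrome P450 enzymes to a product that alkylates DNA. The damage stabilises p53, which switches on genes for cell-cycle arrest, DNA repair and cell death, and the loss of hepatocytes is followed by proliferation of those that survive. In the rat, clones of altered hepatocytes form foci that are recognised by the placental glutathione S-transferase Gstp1 and by other detoxifying enzymes. Many of these enzymes are targets of NRF2, a transcription factor that is activated by electrophiles and that binds the antioxidant response element in their promoters. Repeated injury also draws in inflammatory cells, activates the matrix-producing stellate cells and brings out bile duct-like (ductular) and progenitor cells.

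The NT libraries held 33915562 to 160622633 read pairs counted in genes and the libraries without DEN 21708709 to 29636387. Rat H26 was 4.31 times deeper than the next deepest library, and results are given without it where that matters. Albumin transcripts took 15.7% to 18.99% of the counts of NT liver and 17.8% to 18.98% of those of liver without DEN, and of 16 hepatocyte identity genes 0 passed edgeR's test in either direction (6 at an unadjusted p under 0.05, 0 by DESeq2), with a median log2 fold change of −0.17. At an adjusted p of 0.05 with no limit for size 3 of them were lower and 1 higher, and 2 were called as falls without H28 and 1 without H13. In bulk liver, fewer cells of a type and less RNA per cell cannot be told apart.

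At 20 weeks, 6 weeks after dosing stopped, far more genes were called as above the level of untreated liver than as below it. Of 10827 genes tested, 565 (5.22%) differed in NT liver, with 529 that rose (4.89%) and 36 that fell (0.333%). In the gene lists described further on, 1 rise among 10 to 21 genes is near this share and is no result about the list. A gene is said to rise or fall where it moved at least 2-fold (a log2 fold change of 1) with an adjusted p no larger than 0.01. Every adjusted p below comes from the quasi-likelihood test of edgeR, adjusted by the Benjamini-Hochberg method over all genes tested. The 4 NT rats did not overlap the 4 rats without DEN for 526 of the 529 and for all 36, against 29.4% of all genes tested. The rises were mostly moderate, with 342 of them under 4-fold and 86 at 8-fold or more, and 3 of the falls reached 4-fold. The count of rises depended on single rats. It was 231 without H16, 302 without H14, 302 without H15 and 352 without H26, and the count of falls was 19 without H16, 23 without H14 and 61 without H28.

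At the end of the injections the same test had called 1445 rises (13.1%) and 231 falls (2.1%) among 11016 genes. Of the 529 rises at 20 weeks, 456 (86.2%) had also been called at 14 weeks, where they made up 31.6% of the list. Of the 36 falls, 26 (72.2%) had been called at 14 weeks, 11.3% of that list, and 0 genes were called in opposite directions. Of the 1309 genes that had risen at 14 weeks and could be tested at 20 weeks, 1297 were still above the untreated level. Their median log2 fold change was 1.60 at 14 weeks, the contrast that chose them and so overstates it, and 1.07 at 20 weeks, beside 0.02 for all genes tested. Of the 231 earlier falls, 226 were still below the untreated level, with medians of −1.32 and −0.72.

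The change between the times was tested by itself as the difference between the 20-week and the 14-week effect, called at an adjusted p of at most 0.05. It was called for 83 of 11245 genes (0.738%), with 42 (0.373%) lower and 41 (0.365%) higher at 20 weeks relative to their controls. Of the 82 that were tested at both times, 80 had a smaller difference from untreated liver at 20 weeks than at 14 weeks. Of the 42, 33 had been called as rises at 14 weeks and 1, the laminin chain Lama5, still was at 20 weeks. Of the 41, 24 had been called as falls at 14 weeks and 4 still were. These counts depended on single libraries, being 274 higher and 134 lower without H26, 198 and 188 without the 14-week rat F06, and 121 and 113 without H28. They were 12 and 19 without H22, 13 and 20 without H21, 16 and 19 without F03, 17 and 25 without H10, and 25 and 23 without H11. The number higher was 19 without H25, 24 without H15 and 26 without H13.

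**Figure D1:**
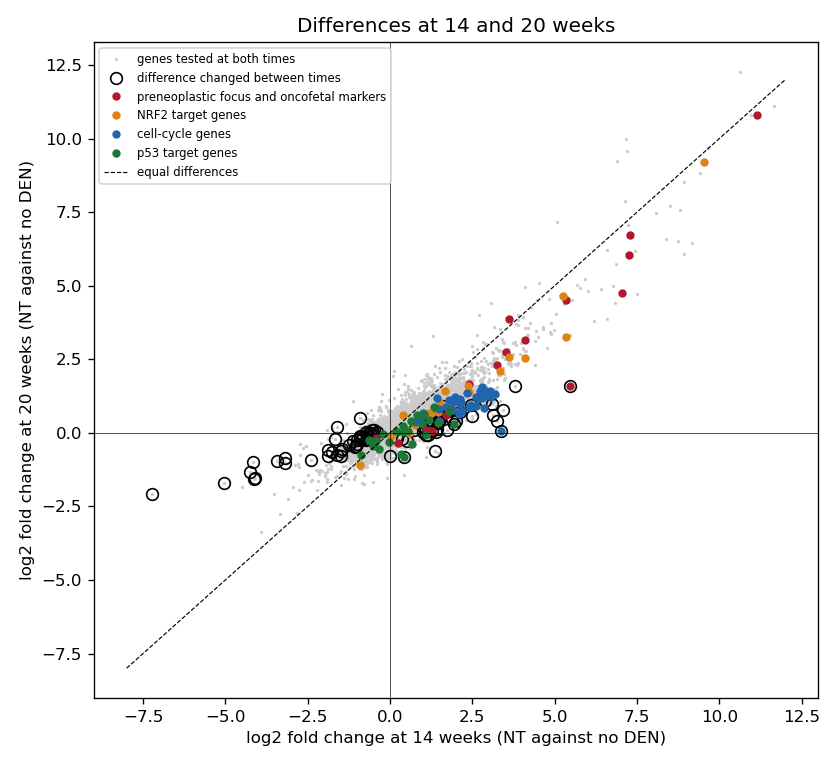
Log2 fold change of NT liver over liver without DEN at 14 weeks (x axis) and at 20 weeks (y axis), each point a gene tested at both times. Rings mark genes that passed the test of the difference between times. Colours mark members of the focus, NRF2, cell-cycle and p53 gene lists, called or not. Of the 456 shared rises 367 lie under the diagonal, and no gene was called in opposite directions.

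The antioxidant response element and a cell-cycle promoter element are shown in the promoters of 4 genes on which the results turn. Gstp1 is the defining focus marker, Gclm encodes the regulatory subunit of the enzyme that limits glutathione synthesis, and Tacc3 and Bub1b, genes of the mitotic spindle, are the called cell-cycle genes that hold the second element. The sequences are RefSeq promoters of build GRCr8, from 250 bases before to 50 bases after the annotated start, 5′ to 3′ on the strand of the gene. They lie at chr1:210769656-210769955, minus strand (Gstp1), chr2:213031885-213032184, plus strand (Gclm), chr14:81289649-81289948, minus strand (Tacc3) and chr3:126016817-126017116, plus strand (Bub1b). Capitals mark the match to TGACNNNGC, searched on both strands (Gstp1 and Gclm, the latter on the reverse strand), or to TTTGAA, the cell-cycle homology region, also searched on both strands (Tacc3 and Bub1b).
Gstp1: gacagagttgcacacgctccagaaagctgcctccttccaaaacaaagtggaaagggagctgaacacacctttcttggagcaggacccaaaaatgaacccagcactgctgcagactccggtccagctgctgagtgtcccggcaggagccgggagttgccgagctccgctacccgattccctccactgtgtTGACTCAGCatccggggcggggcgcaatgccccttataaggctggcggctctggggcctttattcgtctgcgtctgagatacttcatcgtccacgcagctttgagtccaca
Gclm: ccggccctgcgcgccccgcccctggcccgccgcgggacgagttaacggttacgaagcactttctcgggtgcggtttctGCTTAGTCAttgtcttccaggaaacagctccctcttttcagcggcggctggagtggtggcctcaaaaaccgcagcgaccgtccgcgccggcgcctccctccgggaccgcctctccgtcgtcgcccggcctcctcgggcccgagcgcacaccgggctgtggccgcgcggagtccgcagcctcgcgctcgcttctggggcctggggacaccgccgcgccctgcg
Tacc3: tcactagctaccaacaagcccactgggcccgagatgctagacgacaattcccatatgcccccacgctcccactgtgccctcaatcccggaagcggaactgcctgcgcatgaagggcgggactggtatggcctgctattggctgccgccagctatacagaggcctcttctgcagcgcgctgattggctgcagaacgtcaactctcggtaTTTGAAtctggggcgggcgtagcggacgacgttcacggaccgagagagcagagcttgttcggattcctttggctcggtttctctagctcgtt
Bub1b: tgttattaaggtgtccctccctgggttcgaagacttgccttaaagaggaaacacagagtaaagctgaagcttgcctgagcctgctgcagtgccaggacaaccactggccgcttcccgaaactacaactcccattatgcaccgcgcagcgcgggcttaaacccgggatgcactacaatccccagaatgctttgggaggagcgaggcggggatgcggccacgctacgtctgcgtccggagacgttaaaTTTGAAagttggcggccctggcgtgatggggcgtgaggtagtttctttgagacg
The matches begin 61 bases (Gstp1), 172 bases (Gclm), 42 bases (Tacc3) and 4 bases (Bub1b) before the start, and the capitals of Gstp1 also contain TGACTCA, the letters bound by AP-1. Letters matching TGACNNNGC occurred in 12.1% of 33469 promoters, in 15.5% of those of the genes tested, in 20.3% of those of the rises (78 of 385 with a promoter in the table) and in 6 of 19 NRF2 target genes (31.6%). Among the NRF2 targets that rose, 3 of 11 held them (27.3%). TTTGAA occurred in 18.3% of all promoters, in 12.1% of those of the genes tested, in 13.5% of those of the rises (52 of 385) and in 15 of 28 cell-cycle genes (53.6%). A match is only a match of letters, and binding was not measured.

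The enzymes and oncofetal genes that mark preneoplastic foci remained high. Of 17 such genes tested, 11 rose and 0 fell, against 14 rises at 14 weeks, and their median log2 fold change was 2.31 against 3.52. The 11 had all been called at 14 weeks. The difference between times was negative for 15 of the 17 and passed for 2, Abcb1b and Abcb1a, which are described with the other differences between times. Gstp1 stood at 536, 514, 1097 and 1250.4 CPM (counts scaled by library size) in the NT rats and at 10.4, 7.57, 6.95 and 7.82 CPM in the rats without DEN. The lowest NT rat was thus far above the highest untreated rat, and H26 and H28 were about at the 14-week level of 1292 ± 629 CPM (SD, n = 4). Its log2 fold change was 6.73 ± 0.40 (SE, edgeR adjusted p = 0.000135). Akr1b8, an aldo-keto reductase that clears lipid aldehydes, measured 59.5, 51.8, 141 and 148 CPM against 1.301, 1.81, 1.78 and 1.42 CPM, a log2 fold change of 6.04 ± 0.50 (SE, edgeR adjusted p = 0.000507). The aldehyde dehydrogenase Aldh3a1 was nearly absent from untreated liver, with 3 counts in the 4 libraries together, and measured 46.9, 9.95, 77.03 and 121 CPM in NT liver. The ratio of the group means was 1875-fold with a 95% counting interval of 642 to 9094, and H25 was the lowest and H28 the highest NT rat. Its call was lost without H14, H15 or H16, with log2 fold changes of 10.29 to 11.83 over the omissions of single 20-week rats. For other calls lost in this way the smallest log2 fold change in size over these 8 omissions is given as "smallest".

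Other members of the list rose as well. The gamma-glutamyltransferase Ggt1, the classic histochemical marker of foci, had 5.48, 5.999, 13.2 and 16.4 CPM against 0.493, 0.363, 0.548 and 0.446 CPM (log2 fold change 4.50 ± 0.47 (SE, edgeR adjusted p = 0.000534)). Akr7a3, which reduces aflatoxin dialdehyde, had 402, 563, 868 and 846 CPM against 69.96, 50.1, 119.9 and 66.7 CPM (log2 fold change 3.16). H26 and H28 were the upper NT rats for both, and for neither did the groups overlap. The imprinted noncoding RNA H19 differed less between NT rats, at 21.7, 24.3, 20.4 and 30.1 CPM against 1.12, 1.296, 0.914 and 3.28 CPM (log2 fold change 3.87). Glypican-3 (Gpc3), a fetal liver proteoglycan, rested more on H28, with 1.64, 1.38, 1.51 and 5.06 CPM against 0.314, 0.311, 0.411 and 0.405 CPM (log2 fold change 2.74, lost without H13, H14, H15 or H16, smallest 2.08). Akr1b10, Anxa2, Ephx1 and Cd44 completed the 11, with log2 fold changes of 4.77, 2.31, 1.12 and 1.66. Alpha-fetoprotein (Afp) and Igf2, fetal genes of the same list, had log2 fold changes of −0.18 and −0.33 and did not pass, and neither had risen at 14 weeks. Aldh1a1 was at 365, 749.7, 835 and 397 CPM against 291, 344, 511 and 422 CPM and overlapped between the groups.

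Of 22 targets of NRF2 tested, 12 rose and 0 fell, with a median log2 fold change of 1.03, against 13 rises and a median of 1.59 at 14 weeks. Of the rises, 11 were called at both times. The difference between times was negative for 21 of the 22 and passed for 0. The cystine importer Slc7a11, which feeds glutathione synthesis, was at 16.4, 7.74, 44.9 and 40.998 CPM in NT liver and at 0, 0.0518, 0.0457 and 0.0811 CPM in untreated liver. Its log2 fold change of 9.21 ± 1.11 (SE, edgeR adjusted p = 0.00189) sets NT liver against 4 counts in the untreated libraries together. Abcc3, an efflux pump for conjugated metabolites, was at 28.2, 40.6, 65.8 and 57.6 CPM against 2.33, 1.71, 2.01 and 1.74 CPM, a log2 fold change of 4.66 ± 0.31 (SE, edgeR adjusted p = 0.000135). Both subunits of glutamate-cysteine ligase rose. Gclm, whose promoter is printed above, measured 193, 189.6, 356 and 253 CPM against 80.997, 71.7, 96.8 and 86.3 CPM (log2 fold change 1.60 ± 0.20 (SE, edgeR adjusted p = 0.000975)), and the catalytic subunit Gclc had a log2 fold change of 1.39. Ugt1a6, a glucuronosyltransferase, had 67.7, 88.3, 157 and 154 CPM against 18.97, 17.8, 24.3 and 18.9 CPM (log2 fold change 2.58), with H26 and H28 again above F03 and H25. Nqo1, Srxn1, Txnrd1 and Abcc4 rose by log2 fold changes of 2.54, 2.10, 1.05 and 1.05. The glutathione S-transferases Gsta3 (3.25), Gstm3 (1.42) and Gstm1 (1.01) rose as well, but belong to families of near-identical genes, and pairs that fitted more than 1 place were not counted. Abcc2 and Tkt did not pass (−0.10 and 0.10), nor did the heme oxygenase Hmox1 (0.61). The count of rises in this list was 5 without H16 and 5 to 12 over all single omissions, and the call of Gsta3 was lost without H14 or H16, smallest 3.0. That of Srxn1 was lost without H16, smallest 1.85, that of Nqo1 lost without any 1 rat but F03 or H25, smallest 2.22 and that of Gclc lost without any 1 rat but F03, H25 or H28, smallest 1.21. Those of Txnrd1, Abcc4 and Gstm1, close to the limit for size, were each lost without H13, H16, H26 or H28 and 1 or 2 further rats.

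**Figure D2:**
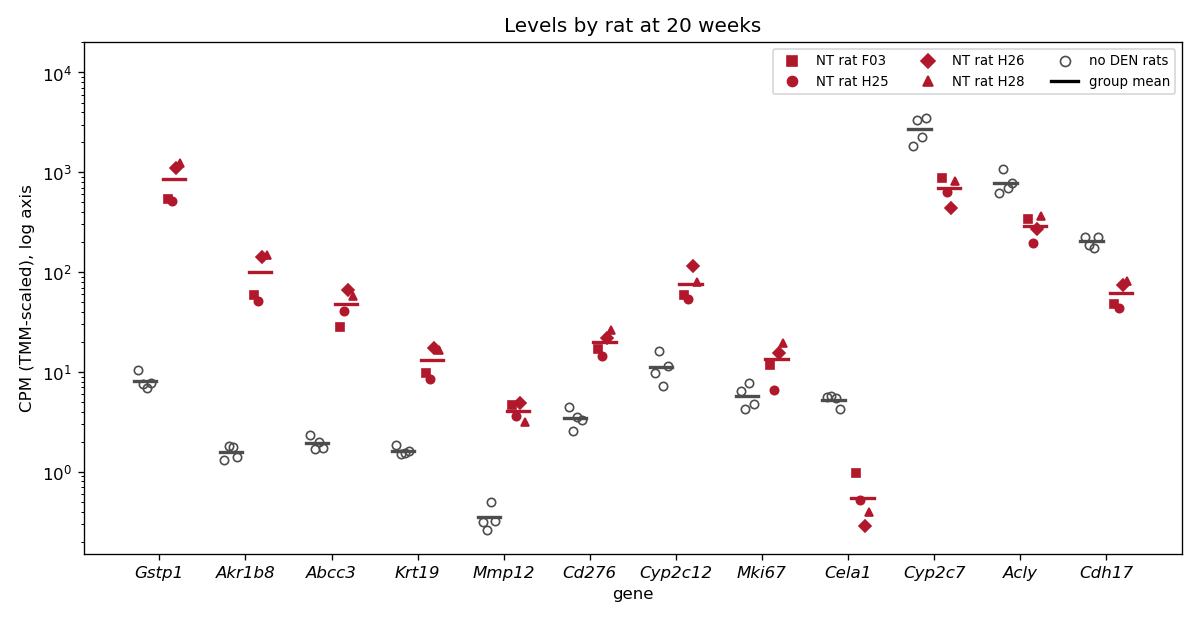
Levels of selected genes in each of the 8 rats at 20 weeks (CPM, log axis), one point per rat, by group. For Gstp1 the 4 NT rats sit between 514 and 1250.4 CPM and the untreated rats between 6.95 and 10.4 CPM.

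Several of the largest rises were of genes with few or no reads in untreated liver, some of them with known roles outside hepatocytes. The beta-defensin Defb1 measured 4.76, 1.87, 8.01 and 8.26 CPM in NT liver and had 0 counts in all untreated libraries, so it was at least 168-fold higher, against a floor of 3 counts over the group. The monocarboxylate carrier Slc16a5 (1.97, 2.26, 6.87 and 7.27 CPM) was at least 135-fold higher and Vsx1, a homeobox factor of the retina (1.58, 1.32, 3.60 and 4.08 CPM), at least 77.7-fold higher on the same floor. H26 and H28 were the upper NT rats for all 3. A further 4 of the named rises had 1 to 3 untreated counts, and their ratios are therefore wide. Dnaaf1, an assembly factor of ciliary dynein, was 972-fold with a 95% counting interval of 174 to 38378. The neurofilament gene Nefm was 249.99-fold with a 95% counting interval of 69.2 to 2064, the calmodulin regulator Pcp4 199.6-fold with a 95% counting interval of 68.3 to 968 and the glucuronosyltransferase Ugt2b7 184-fold with a 95% counting interval of 62.8 to 889.9. Trim54, a muscle ubiquitin ligase, had 5.73, 6.16, 11.5 and 15.96 CPM against 0.0897, 0, 0 and 0.0811 CPM (log2 fold change 7.72 ± 0.67 (SE, edgeR adjusted p = 0.000314)). Grin2c, a subunit of the NMDA receptor, had 3.12, 7.999, 12.3 and 13.6 CPM against 0.135, 0.0518, 0.0914 and 0 CPM (log2 fold change 7.08). Ddit4l2 and Bex1 had log2 fold changes of 6.57 and 6.51. All 15 of the largest rises among genes with a mean of at least 1 CPM had been higher at 14 weeks too, 14 of them called, with Slc16a5 missing the limit there. The call of Defb1 was lost without any 1 rat but H25 or H13 and that of Slc16a5 without any 1 rat but F03 or H25. No smallest value is given for these 2, whose fitted sizes are set against 0 untreated counts. The call of Dnaaf1 was lost without H13, H14, H15 or H16, smallest 9.11 and that of Nefm lost without H16, smallest 7.40.

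Of 16 ductular and progenitor genes tested, 8 rose and 0 fell, with a median log2 fold change of 1.30, against 11 rises and a median of 1.92 at 14 weeks. The difference between times was negative for all 16 and passed for 0. Keratin 19 (Krt19), the standard marker of bile duct epithelium, stood at 9.85, 8.47, 17.5 and 16.4 CPM in NT liver and 1.84, 1.503, 1.55 and 1.62 CPM in untreated liver, a log2 fold change of 3.04 ± 0.27 (SE, edgeR adjusted p = 0.000214). The ductal transcription factor Sox9 measured 2.85, 2.62, 4.15 and 4.08 CPM against 0.224, 0.207, 0.6397 and 0.811 CPM (log2 fold change 2.87), and the progenitor surface protein Cd24 7.48, 5.53, 13.8 and 13.5 CPM against 1.57, 1.76, 1.33 and 1.42 CPM (log2 fold change 2.78). No NT rat overlapped an untreated rat for these 3 genes. Sox4, Cftr (the chloride channel of ducts), Cldn4, Cldn7 and Muc1 rose by log2 fold changes of 2.49, 2.55, 2.19, 1.43 and 1.17. The call of Cldn4 was lost without H15 or H16, smallest 1.88, that of Cldn7 lost without H16, smallest 1.18 and that of Muc1 lost without any 1 rat but F03, smallest 1.02. The keratins that hepatocytes also make differed less, with 0.52 for Krt8 and 0.27 for Krt18, and neither passed. Leaving out single rats gave 5 to 8 rises.

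Few matrix genes passed, and their median effects were smaller than at 14 weeks. Of 10 collagen chains tested, 1 rose (Col16a1, log2 fold change 1.72 ± 0.21 (SE, edgeR adjusted p = 0.000507)) against 5 of 11 at 14 weeks. The median log2 fold change was 0.52 over the 10, against 0.89 over the 11. Col1a1, the main fibrillar chain of scar, was at 9.15, 7.92, 8.59 and 14.7 CPM against 6.19, 4.72, 3.24 and 6.04 CPM, and its log2 fold change of 1.03 ± 0.24 (SE, edgeR adjusted p = 0.0129) missed the limit for p. Col3a1 was tightly spaced at 150.1, 167, 166 and 162 CPM against 132, 93.7, 119 and 115 CPM, and its log2 fold change of 0.52 ± 0.10 (SE, edgeR adjusted p = 0.00494) missed the limit for size. The groups did not overlap for either chain. Col5a2 (0.52) also missed the limit for size, and Col18a1, which hepatocytes make, had −0.04. Among 17 other matrix proteins 14 were higher, 3 lower and 5 rose, among them Thbs1 (1.63), Lama5 (1.58), Lama4 (1.37) and decorin (Dcn, 1.14, lost without H15, smallest 0.97). Biglycan (0.38) and the plasma protein fibronectin (Fn1, −0.46) did not pass. The median log2 fold change of these 17 was 0.68, against 1.32 over the 18 tested at 14 weeks. The summed level of the list was 1974 to 2090.2 CPM in NT liver and 2319 to 2980 CPM in untreated liver.

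The macrophage elastase Mmp12 was the 1 rise among 16 matrix turnover genes, at 4.697, 3.61, 4.89 and 3.14 CPM against 0.314, 0.259, 0.503 and 0.324 CPM. Its log2 fold change was 3.57 ± 0.26 (SE, edgeR adjusted p = 7.25e-05), and the difference from its 14-week effect was −0.61 ± 0.51 (SE, edgeR adjusted p = 0.573). Mmp14 and Mmp19 were below untreated liver by less than the limit for size (−0.46 and −0.42). Of 16 stellate and myofibroblast genes, 1 rose, Tgfb2 (log2 fold change 1.98), whose call was lost without any 1 rat but H25, smallest 1.63. The smooth muscle actin Acta2 of activated stellate cells overlapped, at 5.79, 5.27, 3.65 and 5.14 CPM against 4.04, 5.29, 2.65 and 2.72 CPM (log2 fold change 0.47 ± 0.23 (SE, edgeR adjusted p = 0.156)), and 7 genes of this list had risen at 14 weeks. At 20 weeks 0 to 2 rose when 1 rat was left out and 3 by DESeq2. Vim (0.80) and Pdgfrb (−0.34) did not pass.

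All 18 endothelial genes tested were higher in NT liver, and 3 passed, which were Aplnr (3.58), Esm1 (2.96) and Cd34 (1.91). Cd34, a marker of capillary rather than sinusoidal endothelium, was at 0.667, 0.675, 0.690 and 0.826 CPM against 0.224, 0.155, 0.137 and 0.243 CPM, and its effect was the same to the second decimal at 14 weeks (1.91). Esm1, a secreted proteoglycan of sprouting endothelium, was at 0.879, 1.12, 3.07 and 2.02 CPM against 0.0897, 0.467, 0.137 and 0.284 CPM and had not been called at 14 weeks (0.63). The difference between these times was 2.34 ± 0.73 (SE, edgeR adjusted p = 0.129), so the test did not separate them, and the 20-week call was lost without H13, H15 or H16, smallest 2.51. Lyve1, Stab2 and Kdr, genes of sinusoidal endothelium, had log2 fold changes of 0.94, 1.56 and 0.70 and did not pass. Untreated rats H13 and H14 were above H15 and H16 for these 3, as in the values of Kdr (56.6, 41.2, 20.2 and 27.2 CPM). Eng had 0.20. The median of the list was 0.84, against 0.85 at 14 weeks. The number of rises was 5 without H13 and 2 without H16, and 7 by DESeq2 or with the 6 NT and untreated groups in 1 fit.

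**Figure D3:**
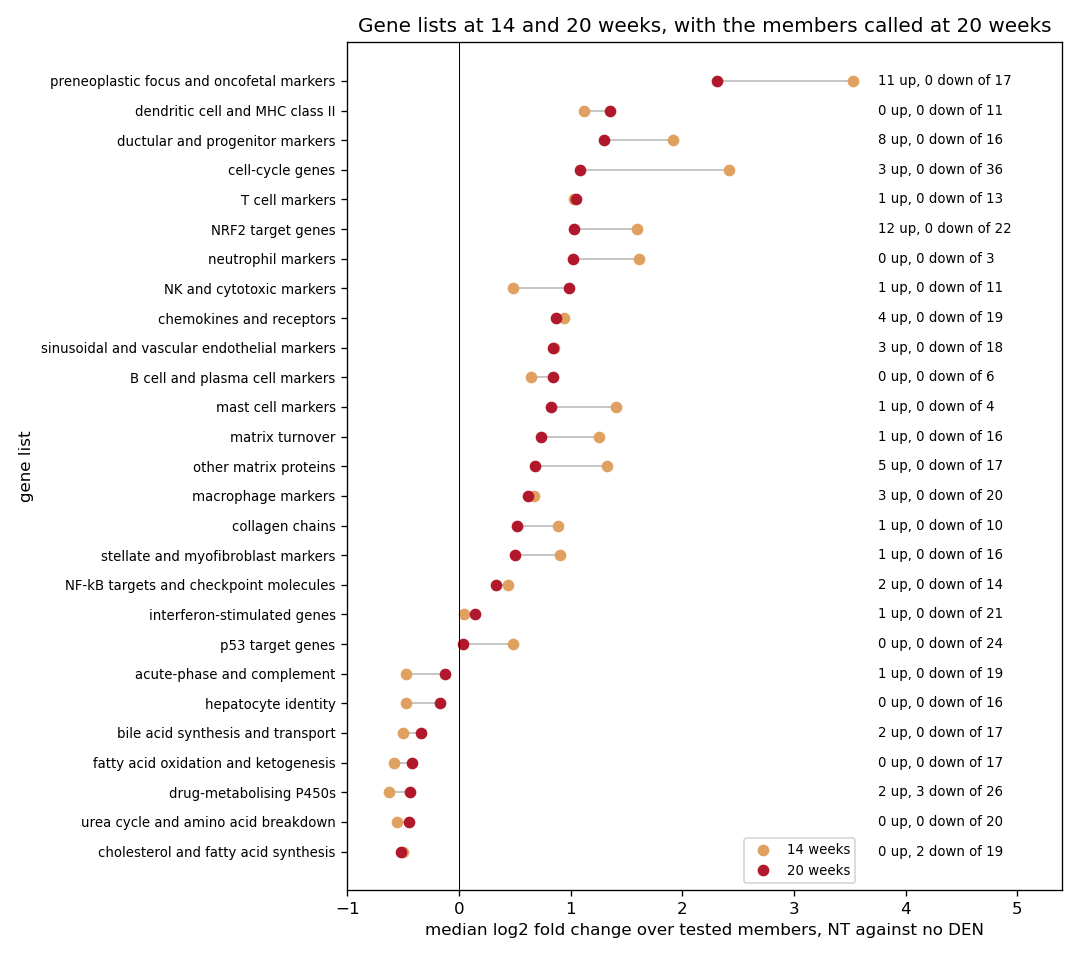
Median log2 fold change of the tested members of each gene list at 14 and at 20 weeks, with the number called over the number tested. At 20 weeks the median is 2.31 for the focus list, 1.35 for MHC class II, 1.30 for the ductular list, 1.08 for cell-cycle genes, 1.03 for NRF2 targets (0.89 to 1.15 when 1 rat is left out) and 0.04 for p53 targets.

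Immune genes were higher across most lists, mostly below the limit for a call. Of 13 T cell genes tested all were higher, 7 of them at an adjusted p of 0.05 by edgeR. The 1 that rose was the kinase Lck (log2 fold change 1.08 ± 0.22 (SE, edgeR adjusted p = 0.00497)). Cd3e, which defines T cells, was at 0.394, 0.468, 0.478 and 0.346 CPM against 0.179, 0.259, 0.3199 and 0.243 CPM, did not overlap, and had an adjusted p of 0.0717 by edgeR. Cd4 (0.72) and Cd8a (0.58) did not pass. Of 11 NK and cytotoxic genes 1, Ctsw, rose (1.80), and the granule genes Prf1 (0.57) and Gzma (0.16) overlapped between groups. Of 6 B cell genes 0 rose by edgeR (2 at an unadjusted p under 0.05, 0 by DESeq2), with Blk at 0.69 and Fcrla at 0.98. The call of Lck was lost without any 1 rat but H25 or H26, smallest 0.94 and that of Ctsw lost without H14, H15 or H16, smallest 1.62.

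Of 20 macrophage genes all were higher and 3 rose, which were Mmp12, Cd9 (1.42) and the lysosomal protein Gpnmb (1.33), the last 2 being genes of the macrophages found in fibrous tissue. By rat, the median of the list on the log2(CPM + 0.5) scale, relative to the untreated mean, was 0.94, 0.25, 0.41 and 0.61 in the NT rats and 0.36, 0.04, −0.04 and −0.32 in the untreated rats, so that the groups overlapped, with H13 above H25. H13 was also the highest untreated rat for the T cell, NK, B cell, neutrophil and MHC class II lists, and above H25 for the last (0.35 and 0.18). Gpnmb was at 62.1, 32.8, 48.2 and 48.9 CPM against 21.98, 22.6, 20.3 and 13.5 CPM, with F03 the highest NT rat, and its call was lost without H15 or H26, smallest 1.15, that of Cd9 lost without H16, smallest 1.24. Cd68 (0.62) and the Kupffer cell genes Clec4f (0.30) and Cd5l (0.50) did not pass. Clec4f was at 222, 133, 143 and 134 CPM against 168, 135, 123 and 98.3 CPM, so that only F03 was above all untreated rats. Among neutrophil genes S100a9 (0.97) and S100a8 (1.02) did not pass, and 3 of the 12 listed were high enough to test. The mast cell protease Mcpt2 rose (2.59, lost without H13, H16 or H26, smallest 2.18), at 0.636, 0.493, 0.562 and 0.506 CPM against 0.0448, 0.207, 0 and 0.122 CPM, while Kit (1.0) and Hdc (−1.17) did not pass.

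Among 19 chemokine genes tested 4 rose, with 1 without H14 or H15, 2 without H28 and 6 without H25. They were Cxcl16 (1.32), Cx3cl1 (1.48, lost without H13, H14 or H15, smallest 1.22), the lymphatic chemokine Ccl21 (1.42, lost without any 1 rat but H25 or H26, smallest 1.20) and the scavenging receptor Ackr3 (1.0, lost without H14, H15 or H28, smallest 0.87). Cxcl16, the ligand of Cxcr6 on T and NKT cells, was at 11.03, 7.69, 11.8 and 15.1 CPM against 5.202, 4.87, 4.295 and 4.38 CPM, a log2 fold change of 1.32 ± 0.19 (SE, edgeR adjusted p = 0.00111). Cxcl12, which had fallen at 14 weeks, was still below untreated liver but under the limit for size, at 239, 255, 211 and 190.2 CPM against 400.2, 329.9, 379 and 380.5 CPM (log2 fold change −0.70 ± 0.11 (SE, edgeR adjusted p = 0.00129)). Cxcl9, a target of interferon gamma, had 0.64 and did not pass. The checkpoint molecule Cd276 (B7-H3) rose, with 17.2, 14.4, 22.1 and 26.3 CPM against 4.48, 2.54, 3.52 and 3.28 CPM (log2 fold change 2.56 ± 0.22 (SE, edgeR adjusted p = 0.000214)). Of other immune ligands and receptors, Cd48 (0.72) and Tnfrsf9 (0.52) did not pass, and Lgals9 was below untreated liver by less than the limit for size (−0.64). Of 21 interferon-stimulated genes 1 rose, Gbp5 (2.0), against 4.89% of all genes tested, and B2m (−0.09) and Psmb8 (−0.13) were close to the untreated level.

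The genes of MHC class II presentation differed widely between the NT rats. Cd74, the invariant chain, was at 298, 135, 163 and 755 CPM in NT liver and 175, 119.8, 85.7 and 87.3 CPM in untreated liver, and RT1-Db1, a class II beta chain, at 118, 47.7, 58.1 and 305 CPM and 70.9, 42.4, 29.3 and 31.1 CPM. H28 was the highest by far for both, F03 was the next, and H25 and H26 lay within the untreated range. Of 11 genes of the dendritic cell and MHC class II list 0 were called by edgeR at 20 weeks (9 at an unadjusted p under 0.05, 1 by DESeq2) against 6 at 14 weeks. The list's median log2 fold change was 1.35, and 0.73 without H28.

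Few cell-cycle genes passed the limits used. All 36 had a positive fitted log2 fold change at 20 weeks, although that of Mybl2 turned negative in some omissions of 1 rat. The median was 1.08, but 3 passed against 34 at 14 weeks, when the median was 2.42. The 3 were the spindle checkpoint kinase Bub1b, at 1.45, 0.961, 1.94 and 1.86 CPM against 0.718, 0.622, 0.823 and 0.568 CPM (log2 fold change 1.24 ± 0.28 (SE, edgeR adjusted p = 0.00906)), the replication licensing factor Mcm3 (1.22 ± 0.22 (SE, edgeR adjusted p = 0.00335)) and the spindle protein Tacc3 (1.03 ± 0.20 (SE, edgeR adjusted p = 0.00393)). By rat, the median of the list on the log2(CPM + 0.5) scale, relative to the untreated mean, was 0.79, 0.23, 1.02 and 1.29 in the NT rats and 0.19, −0.35, 0.31 and −0.11 in the untreated rats, so that H25 lay within the untreated range. The proliferation marker Mki67 was at 11.8, 6.54, 15.4 and 19.7 CPM against 6.41, 4.25, 7.77 and 4.74 CPM. H25 lay within the untreated range, and the log2 fold change of 1.24 ± 0.34 (SE, edgeR adjusted p = 0.0276) did not pass. Stmn1 (1.06) and Spc25 (1.41) did not pass either, though both, like Mki67, were called as rises without H25. Ccnd1 (0.54) and Pcna (0.36) were closer to the untreated level. The calls of Bub1b, Mcm3 and Tacc3 were lost without any 1 rat but H25, smallest 1.10, lost without H14, H16 or H26, smallest 1.02 and lost without H14, H16, H26 or H28, smallest 0.87 respectively. The count turned on single rats, with 19 rises without H25 and 0 without H14, H16 or H26. At an adjusted p of 0.05 with no limit for size 24 of the 36 were higher, and DESeq2 called 16 at the usual limits. The test of the difference between times was negative for all 36 and passed for 3, Mybl2, Kif11 (−1.52) and Tk1 (−1.09), the last 2 singled out after their values were seen. Of the 16 single omissions at both times, 11 ended the call of Kif11 and 3 that of Tk1 (F03, H10 and H22).

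The targets of p53 were split in direction and had no call. Of 24 tested, 0 were called by edgeR at 20 weeks (10 at an unadjusted p under 0.05, 0 by DESeq2) against 7 rises at 14 weeks, and the median log2 fold change was 0.04 against 0.49. At an adjusted p of 0.05 with no limit for size 3 were higher and 6 lower, and 1 rose without H14. The summed level of the list was 702 to 770 CPM in NT liver and 797 to 1026 CPM in untreated liver. The cell-cycle inhibitor Cdkn1a (p21) was at 37.1, 53.2, 64.9 and 44.2 CPM in NT liver and at 31.7, 47.3, 30.5 and 55.3 CPM in untreated liver, and the groups overlapped. At 14 weeks it had been at 132 ± 19.8 CPM against 35.5 ± 4.01 CPM (SD, n = 4 each), and the difference between the times was −1.62 ± 0.28 (SE, edgeR adjusted p = 0.0145). A further 4 targets passed the test of the difference. The death receptor Fas had a difference of −1.04 ± 0.15 (SE, edgeR adjusted p = 0.00257) and remained above untreated liver by less than the limit for size (0.75). For the p53 ubiquitin ligase Mdm2 the difference was −1.11 ± 0.13 (SE, edgeR adjusted p = 0.000394) and for the cyclin Ccng1 −1.17 ± 0.18 (SE, edgeR adjusted p = 0.00359). Phlda3, an inhibitor of AKT, was below untreated liver at 20 weeks, at 19.3, 18.8, 17.3 and 26.03 CPM against 34.7, 37.8, 33.1 and 40.8 CPM. Its log2 fold change of −0.81 ± 0.13 (SE, edgeR adjusted p = 0.00163) stayed under the limit for size, and its difference between times was −1.24 ± 0.15 (SE, edgeR adjusted p = 0.000455). The values of Mdm2, Ccng1 and Phlda3 were singled out after they were seen. Perp (−0.31) and Ei24 (−0.29) were below untreated liver by less than the limit for size.

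The largest differences between the times are given for genes with a mean of at least 1 CPM over the 16 libraries. Below that limit, Pln (−5.24) and Il17rd (−2.85), singled out after their values were seen, also passed as lower. Pln had been at 1.51 ± 0.204 CPM at 14 weeks and was at 0.182, 0.234, 0.0723 and 0.0533 CPM at 20 weeks against 0.0897, 0.259, 0.137 and 0.162 CPM, too low to test at 20 weeks alone. Abcb1b, a drug efflux pump, had been at 183 ± 15.1 CPM at 14 weeks against 4.298 ± 1.16 CPM, and measured 23.2, 25.2, 49.3 and 37.1 CPM at 20 weeks against 5.79, 18.7, 8.73 and 12.8 CPM. All NT rats were still above all untreated rats, the call at 20 weeks was missed, and the difference between the times was −3.85 ± 0.46 (SE, edgeR adjusted p = 0.00105). Its close paralog Abcb1a, singled out after its values were seen, also passed (−1.20 ± 0.24 (SE, edgeR adjusted p = 0.0234)) but lost its call in 8 of the 16 single omissions, and reads of such pairs may be lost where they are alike. The S-phase transcription factor Mybl2 was within the untreated range, at 1.39, 1.09, 1.48 and 1.15 CPM against 1.03, 2.18, 0.457 and 1.46 CPM, with a difference of −3.30 ± 0.44 (SE, edgeR adjusted p = 0.00102). Mybl1, of the same family, had a difference of −2.64 ± 0.38 (SE, edgeR adjusted p = 0.00297). Lama5 was the 1 gene that passed as lower while still called as a rise, at 3.88, 5.71, 5.36 and 6.05 CPM against 1.75, 1.61, 1.65 and 2.19 CPM at 20 weeks and 19.4 ± 1.64 CPM at 14 weeks, with a difference of −2.20 ± 0.22 (SE, edgeR adjusted p = 9.60e-05). Fam83d, Gtse1, Nrcam and Rasl10b, the first 2 of which act in mitosis, had differences of −2.52, −2.13, −1.97 and −1.92. Smaller differences passed for the membrane gene Sgcb (−1.41), fibrillin-1 (Fbn1, −0.87) and the basement membrane chain Col4a1 (−0.68). Col4a1 (0.91), Fbn1 (0.72) and the actin-binding Flna (0.76) were above untreated liver at 20 weeks by less than the limit for size. Of the 16 single omissions, 9 ended the call of Fam83d, 6 that of Gtse1, 10 that of Nrcam, 4 that of Col4a1 (F03, H11, H21 and H22) and 9 that of Fbn1, with F03, H21 and H22 among them for each.

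**Figure D4:**
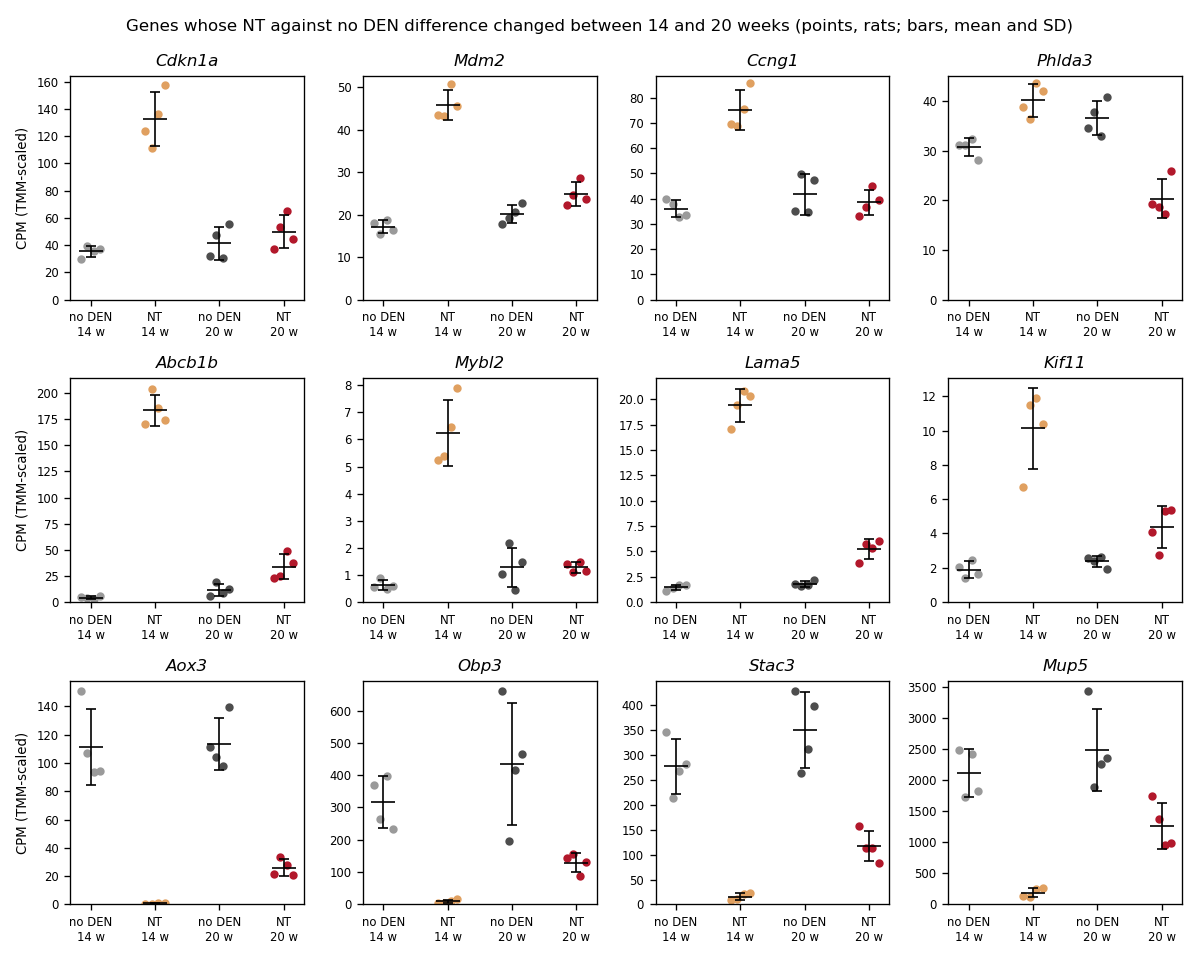
Levels (CPM) in NT liver and liver without DEN at 14 and at 20 weeks, one point per rat, with the mean and SD of each group. The genes are Cdkn1a, Mdm2, Ccng1, Phlda3, Abcb1b, Mybl2, Lama5, Kif11, Aox3, Obp3, Stac3 and Mup5, whose effects differed between the times by edgeR's test. At 20 weeks the groups overlapped for Cdkn1a and Mybl2 and stayed apart for Lama5 and Aox3.

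In the other direction, genes that had fallen at 14 weeks were closer to the untreated level at 20 weeks. The aldehyde oxidase Aox3 was nearly lost at 14 weeks, with 0.7303 ± 0.531 CPM against 111 ± 26.8 CPM, and stood at 21.4, 33.6, 27.8 and 20.9 CPM against 112, 104, 97.8 and 139.5 CPM at 20 weeks. It was still called as a fall (−2.09 ± 0.16 (SE, edgeR adjusted p = 0.000135)), and its difference between times, 5.15 ± 0.45 (SE, edgeR adjusted p = 9.60e-05), was the largest positive one of the named genes. Stac3, an adaptor known from muscle, measured 157, 114, 113 and 83.5 CPM against 428, 265, 311 and 398 CPM at 20 weeks and 15.6 ± 7.28 CPM at 14 weeks, with a difference of 2.57 ± 0.42 (SE, edgeR adjusted p = 0.0116). Gimd1 also remained a called fall (−1.57) with a positive difference (2.55). The carbonic anhydrase Car3, abundant in male rat liver, overlapped with untreated liver at 1026, 1032, 868 and 688 CPM against 1477, 989, 859 and 946 CPM, after 323 ± 45.9 CPM at 14 weeks (difference 1.47 ± 0.24 (SE, edgeR adjusted p = 0.00828)). The methyltransferase Inmt had a difference of 2.95. The urinary protein and lipocalin genes Obp3 (3.33), LOC100360095 (3.18), Mup5 (2.49) and LOC259245 (2.34), passed too. Mup5 was at 1739.9, 1371, 955 and 983 CPM against 3428, 1883, 2258 and 2355 CPM at 20 weeks, and had been at 191 ± 76.9 CPM against 2113 ± 392 CPM at 14 weeks. These genes belong to clusters of near-identical copies, so their separate values are uncertain. The call of Obp3 ended without F03, H21 or H22, and that of Inmt without F03, H10, H11, H15, H16, H22 or H25.

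Metabolic genes of hepatocytes were mostly below the untreated level, by small amounts. Of 26 drug-metabolising P450 genes 21 were lower, 3 fell and 2 rose. Leaving out single rats gave 1 to 4 falls, with 1 without H16, H26 or H28. Cyp2c7 measured 875, 639, 436 and 819.7 CPM against 1824, 3324, 2269 and 3496 CPM, a log2 fold change of −1.94 ± 0.27 (SE, edgeR adjusted p = 0.00148). The male-predominant Cyp2c11 was at 2498, 1797, 1702 and 1159 CPM against 4594, 3598, 3499 and 4583 CPM (log2 fold change −1.15 ± 0.21 (SE, edgeR adjusted p = 0.00357), lost without H16, H26 or H28, smallest −0.99), and the female-predominant Cyp2c12 at 59.4, 53.6, 115 and 79.2 CPM against 9.82, 16.2, 7.17 and 11.6 CPM (log2 fold change 2.82 ± 0.32 (SE, edgeR adjusted p = 0.00108)). The groups did not overlap for either. Cyp3a9 fell (−1.22, lost without any 1 rat but H25, H14 or H15, smallest −0.99) and Cyp3a62 rose (1.64). Cyp2e1, which activates DEN, was at 2049, 2116, 1678 and 1334 CPM against 2695, 2399, 2371 and 2379.5 CPM and did not pass (log2 fold change −0.42 ± 0.14 (SE, edgeR adjusted p = 0.0395)), and Cyp2c22 had 0.0042. These subfamilies share long stretches of sequence, so reads may be split or dropped between members.

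Of 20 genes of the urea cycle and amino acid breakdown 19 were lower, 14 of them at an adjusted p of 0.05 by edgeR, but 0 were called (16 at an unadjusted p under 0.05, 1 by DESeq2). Hpd, of tyrosine breakdown, was at 1910.4, 1717, 1355 and 1624 CPM against 2849.6, 2649.6, 2078 and 2409.8 CPM (log2 fold change −0.56 ± 0.13 (SE, edgeR adjusted p = 0.00981)) and Cps1, the entry enzyme of the urea cycle, had −0.50. Fatty acid oxidation was alike, with 16 of 17 genes lower, 5 at that p and 0 called (11 at an unadjusted p under 0.05, 0 by DESeq2), with Acaa2 at −0.0043. Of 19 genes of cholesterol and fatty acid synthesis 2 fell, 1 of which was Acly, and leaving out single rats gave 0 (without H26) to 4 (without H28) falls. ATP citrate lyase (Acly), which supplies acetyl-CoA for lipid synthesis, was at 341, 195, 273 and 361 CPM against 627, 1067, 690.2 and 773 CPM (log2 fold change −1.39 ± 0.22 (SE, edgeR adjusted p = 0.00235)). Its call was lost without H26, smallest −1.22. Fatty acid synthase (Fasn) at 370.2, 233, 305 and 753 CPM against 825, 1818, 1025 and 847 CPM did not pass, with H28 close to the untreated range, but was called as a fall without H28 (−1.86), and Hmgcs1 had −0.29.

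Of 17 bile acid and sterol genes 15 were lower, 7 of them at an adjusted p of 0.05 by edgeR but 0 by the limits used, and the median log2 fold change was −0.34. The 2 others rose, both subunits of the exporter of sterols into bile. Abcg5 measured 9.697, 15.2, 14.4 and 10.3 CPM against 5.16, 3.37, 6.12 and 3.93 CPM (log2 fold change 1.45 ± 0.21 (SE, edgeR adjusted p = 0.00113)) and Abcg8 3.18, 6.86, 6.15 and 5.35 CPM against 1.88, 0.415, 1.33 and 1.09 CPM (log2 fold change 2.21, lost without H16, smallest 1.94). Abcg5 had been 0.63 at 14 weeks and was not called there, though the difference between times did not pass (0.84 ± 0.29 (SE, edgeR adjusted p = 0.158)). Akr1d1 (−0.20) and Baat (−0.47) did not pass. Of 19 acute-phase and complement genes 1 rose, the endotoxin-binding Lbp, at 98.1, 99.9, 111 and 146 CPM against 39.6, 31.5, 51.96 and 35.6 CPM (log2 fold change 1.55 ± 0.18 (SE, edgeR adjusted p = 0.000609)), while Hp (0.15) and C3 (−0.09) were near the untreated level.

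The largest fall was that of Cela1, an elastase gene also active outside the pancreas, at 0.9697, 0.519, 0.284 and 0.3996 CPM against 5.56, 5.703, 5.53 and 4.22 CPM (log2 fold change −3.36 ± 0.33 (SE, edgeR adjusted p = 0.000216)). The insulin receptor substrate Irs3 followed, at 6.58, 4.805, 4.96 and 17.2 CPM against 51.7, 81.8, 48.2 and 44.9 CPM (log2 fold change −2.74 ± 0.48 (SE, edgeR adjusted p = 0.00688)), with H28 the highest NT rat. Cdh17, a cadherin known from intestine, was at 47.4, 43.6, 73.6 and 82.1 CPM against 227, 186, 176 and 224 CPM (log2 fold change −1.68), and the glycogen-targeting phosphatase subunit Ppp1r3b at 90.5, 77.2, 119 and 210.2 CPM against 492, 444, 415 and 399 CPM (log2 fold change −1.78). None of the 4 genes overlapped between the groups. Tor3a (−1.86), the ephrin receptor Epha4 (−1.72), Paqr9 (−1.63) and Mtmr7 (−1.60) completed the 10 largest falls with Aox3 and Cyp2c7. The call of Irs3 was lost without any 1 rat but H28, smallest −2.52, that of Tor3a lost without any 1 rat but H28 or H13, smallest −1.70, that of Ppp1r3b lost without F03, H14, H16 or H26, smallest −1.61 and that of Mtmr7 lost without H16 or H26, smallest −1.35.

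Marker lists of other tissues were checked because a piece of neighbouring tissue could add genes. Of 11 pancreas genes 5 were at 0 in all 8 libraries and 2 could be tested, Cela1 and Cpa1, a digestive carboxypeptidase that rose to 0.333, 1.402, 3.53 and 1.97 CPM against 0.0448, 0, 0.0457 and 0 CPM (lost without any 1 rat but F03, being too low to test without H25, H26 or H28, smallest 5.81 over the other 5). The summed level of the list was 1.58 to 4.11 CPM in NT liver and 4.50 to 5.92 CPM in untreated liver. Of 8 skeletal muscle genes 0 could be tested, with sums of 0.540 to 1.33 CPM and 0.311 to 0.457 CPM. Of the adipose list Fabp4, which capillary endothelium and macrophages also express, rose (4.39, 2.805, 4.97 and 5.73 CPM against 0.179, 0.8295, 0.137 and 0.284 CPM, log2 fold change 3.73 ± 0.43 (SE, edgeR adjusted p = 0.000507)), while the defining gene Adipoq was at 0, 0.0519, 0.0556 and 0.0533 CPM in NT liver and at 0 in all untreated rats, and Cidec had −0.36. Hemoglobin genes did not pass (Hbb −0.19, Hbb-b1 −0.31), with summed red cell levels of 157 to 299 CPM in NT liver and 196 to 324 CPM in untreated liver. Of 3 intestinal genes tested the brush border gene Vil1 rose (4.52, lost without H16, smallest 4.04), Cdh17 fell and Fabp2 did not pass (0.46). The part of other tissue in the results was not tested beyond these values.

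The NT rats differed in degree. Of the 529 rises, 290 were highest in H28, 151 in H26, 60 in F03 and 28 in H25, and 290 were lowest in H25, 130 in F03, 68 in H26 and 41 in H28. Over the 1309 genes that had risen at 14 weeks in other rats, the median log2 difference from the untreated mean was 0.54 in H25, 0.73 in F03, 0.81 in H26 and 0.95 in H28. The order was not the same for every group of genes. The focus and NRF2 lists were highest in H26 (medians of 2.17 and 1.25) and lowest in H25 and F03 respectively (1.14 and 0.53), cell-cycle genes ranged from 0.23 in H25 to 1.29 in H28, and macrophage and T cell genes were highest in F03 (0.94 and 0.81). H26, the deepest library, was the highest rat for 5 of the 30 lists and the lowest for 10. With its counts thinned to the depth of the others there were 513 rises, 492 of them shared with the 529, and 36 falls, 35 of them shared.

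**Figure D5:**
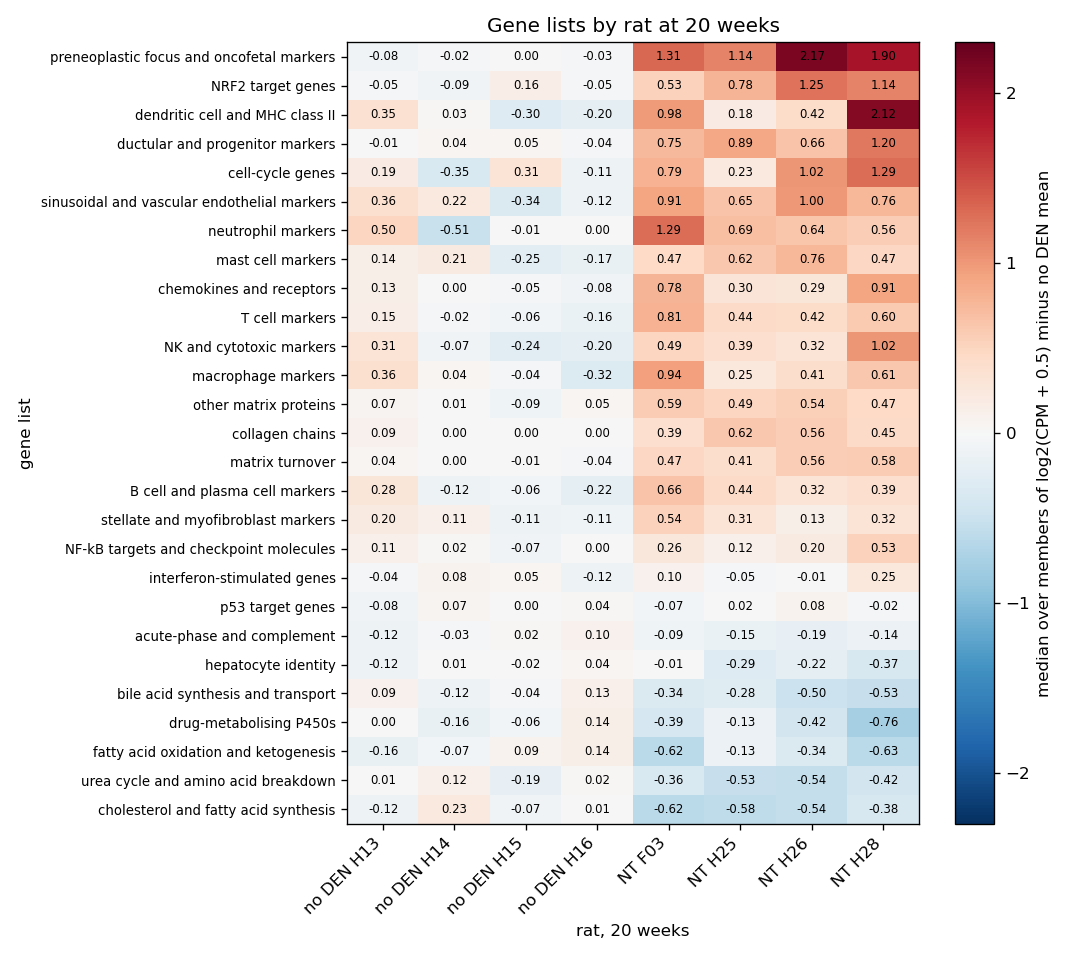
Median over list members of the log2 difference from the mean of the 4 untreated rats, for each of the 8 rats at 20 weeks (log2(CPM + 0.5) scale). The 4 NT rats separate from the untreated rats for the focus list, at 1.14 to 2.17, and spread widely for the MHC class II list, from 0.18 in H25 to 2.12 in H28.

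At 20 weeks, 73 rises and 10 falls had not been called at 14 weeks, 6 of the rises being too low to test there. None of the 83 passed edgeR's test of the difference between times, while 10 had an unadjusted p under 0.05 and DESeq2 called 3, so as a set they are not shown to have appeared after dosing stopped.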

How the data were processed

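The deposited files hold raw read pair counts per gene, 1 file per library, made by the authors from poly(A) RNA libraries (stranded, paired ends) with STAR 2.7.1a on rat build rn6 and HTSeq, counting exons on the reverse strand and leaving out pairs that fitted more than 1 place or gene. Lines of the HTSeq summary (33.1% to 36.0% of pairs) were removed.

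Groups were taken from the titles, 4 rats each. Genes were filtered with filterByExpr (minimum count 10), scaled by TMM and tested with edgeR 4.0.16 in R 4.3.3 (robust quasi-likelihood F test, Benjamini-Hochberg over all genes tested), with the study's limits for NT liver (log2 fold change 1, adjusted p 0.01). The interaction of time and DEN was tested over 16 rats at an adjusted p of 0.05. The steps were tested on simulated data. Printed CPM are TMM-scaled, and a list's level in a rat is its median of log2(CPM + 0.5). Floors are 3 counts over a group, and intervals are exact Poisson (95%), covering counting error only. Totals of 21708709 to 160622633 counted pairs set the precision. Replicate libraries differed by far more than sampling noise (chi-square per degree of freedom of 12.9 or more).

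Named genes were the 15 largest rises and 10 largest falls called at 20 weeks (mean over 8 libraries 1 CPM or more, groups apart), up to 4 called and 2 uncalled members per list, defining genes of the lists, the 8 largest interactions each way (mean over 16 libraries 1 CPM or more), and genes the study names for NT liver. Some genes that fell under this rule are not reported here. Others are said to be chosen after their values were seen, or are further called or contrasting members of a list. The groups compared and the 32 gene lists were chosen with earlier results of these data known. Alternatives were DESeq2 1.42.0, RLE scaling, no filter, thinned counts of H26, rats numbered H only, 6 groups in 1 fit, other limits, and each rat left out. Promoters are RefSeq's (GRCr8), matched by symbol.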

Additional observations from a re-analysis of the deposited data

Results flagged for a closer look

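Of 356 groups of 4 rats looked at for the named genes, 19 held 1 rat that stood apart from the other 3 by Dixon's test, and chance alone flags about 1 group in 20. In NT liver at 20 weeks, H28 stood apart for Irs3 (17.16 CPM, the others 4.81 to 6.58), Cd34 (0.8258 CPM, the others 0.667 to 0.690) and Gzma (4.236 CPM, the others 1.69 to 2.12). F03 stood apart for the Kupffer cell gene Clec4f (222 CPM, the others 133 to 143) and for the neutrophil genes S100a9 (6.333 CPM, the others 3.38 to 3.71) and S100a8 (2.303 CPM, the others 1.14 to 1.32), and H26 for Kit (2.309 CPM, the others 1.87 to 1.91).

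In untreated liver at 20 weeks, H16 stood apart for Ugt2b7 (0 CPM, the others 0.0448 to 0.0518), Nefm (0.0811 CPM, the others 0), Cela1 (4.216 CPM, the others 5.53 to 5.70), Cyp2c22 (2014 CPM, the others 1680.0 to 1714) and Cd44 (1.257 CPM, the others 2.10 to 2.13). H15 did so for Dnaaf1 (0.0457 CPM, the others 0), Hdc (12.84 CPM, the others 4.35 to 5.11) and Gtse1 (1.508 CPM, the others 1.09 to 1.14). H13 did so for Ddit4l2 (0.1345 CPM, the others 0.0405 to 0.0518), Tgfb2 (0.0897 CPM, the others 0.405 to 0.467) and Cyp2e1 (2695 CPM, the others 2371 to 2399). Several of the lowest values are 0 to 3 read pairs. At 14 weeks, untreated rat H09 stood apart for Fbn1 (7.292 CPM, the others 5.69 to 5.84).

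The effect of DEN differed between 14 and 20 weeks, by edgeR's interaction test, for 22 named genes. The log2 differences (20 weeks minus 14 weeks) were positive for Aox3 (5.15), Obp3 (3.33), LOC100360095 (3.18), Inmt (2.95), Stac3 (2.57), Gimd1 (2.55), Mup5 (2.49), LOC259245 (2.34) and Car3 (1.47). They were negative for Abcb1b (−3.85), Mybl2 (−3.30), Mybl1 (−2.64), Fam83d (−2.52), Lama5 (−2.20), Gtse1 (−2.13), Nrcam (−1.97), Rasl10b (−1.92), Cdkn1a (−1.62), Sgcb (−1.41), Fas (−1.04), Fbn1 (−0.87) and Col4a1 (−0.68).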

How the results depend on the processing

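No paired analysis was possible because the labels give each rat an identifier of its own and the replicate numbers used here name rats in accession order. No call at 20 weeks turned sign in the 14 alternatives that refitted it, although 9 of the 565 could not be tested in at least 1, and no difference between times did so in 22. Of the calls, 205 rises and 14 falls were called in every one of the 15 settings that kept the limits, while the other calls were lost in at least 1. Leaving out 1 rat gave 231 to 616 rises and 19 to 61 falls at 20 weeks, 217 to 540 shared rises and 14 to 33 shared falls, and 12 to 274 positive and 19 to 188 negative differences between times. DESeq2 gave 75 falls, 50 shared falls, and 189 positive and 201 negative differences. The 6 NT and untreated groups in 1 fit gave 80, 55, 92 and 86, and rats numbered H only gave 92 and 90 differences. Limits of 0.5 and an adjusted p of 0.05 gave 1543 rises and 414 falls, and limits of 1 and 0.01 on the difference left 6 positive and 13 negative. Scaling moved the median of all genes by less than 0.1 (log2). The cause of these moves was not tested, beyond fewer rats or other limits.

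Signs turned only for genes without a call. Leaving out 1 rat gave ranges, on the log2 scale, of −0.042 to 0.069 for Tf, −0.11 to 0.0024 for Col18a1, −0.30 to 0.037 for Abcc2, −0.054 to 0.098 for Cyp2c22, −0.12 to 0.088 for Acaa2, −0.23 to 0.42 for Gzma, −0.24 to 0.085 for Icam1 and −0.24 to 0.41 for Mybl2. Cyp2c22 was −0.027 with DESeq2, −0.020 with RLE scaling, −0.0027 without the filter and −0.031 with 6 groups in 1 fit, Tf was −0.0042 with 6 groups, and rats numbered H only gave 0.037 for Abcc2 and 0.088 for Acaa2. Of the named genes, 42 of 71 kept their 20-week call without any 1 rat, and 15 of 22 their difference between times. Untreated depth limits ratios for genes with 0 to 3 counts.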
